A study of Mus musculus with 4 samples.

Results

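Non-dividing microglia of the thalamus were examined in nuclei that had been chosen by counts of marker genes. A nucleus was retained when at least 10 of every 10000 of its UMIs came from Ly86, Fyb and Ikzf1 together, which are genes of the immune lineage. It also needed at least 1 UMI of the microglial genes Siglech, P2ry12 and Cx3cr1, and more UMIs of these than of F13a1, Mrc1, Ccr2 and Ms4a7, which mark macrophages and monocytes. Nuclei with 2 or more UMIs of the cell-division genes Top2a and Mki67 were set aside. The gate retained 1482 nuclei of 32241 that had at least 500 genes and under 5% mitochondrial UMIs, out of 32332 barcodes in all. A UMI is a molecular tag that marks 1 captured RNA molecule.

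The nuclei came from 4 snRNA-seq libraries of the thalamus of wild-type C57BL6 mice aged 7 to 8 weeks. The NS group (C1 and C2, here replicates 1 and 2) had received 10 nl of saline in the right VPM and VPL, and the COL group (M1 and M2, replicates 1 and 2) 0.01 U of type IV collagenase (Coll IV) in 10 nl, which damages vessel walls and models thalamic haemorrhage. Each library pooled the tissue of 3 mice taken 7 days after the injection, and libraries were compared as replicates (n = 2 in each group). Differences between single mice could not be seen. Where 4 values are given in library order, they belong to NS replicate 1, NS replicate 2, COL replicate 1 and COL replicate 2. The gate retained 339 and 353 nuclei of NS replicates 1 and 2 and 311 and 479 nuclei of COL replicates 1 and 2. The 4 libraries held between 68746459 and 77557870 UMIs in all, and 102 barcode sequences occurred in a pair of libraries, none of them gated in both libraries of the pair.

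Microglia are the resident phagocytes of the brain. They depend on signalling through the receptor Csf1r and, in healthy tissue, carry a set of genes maintained by TGF-β signalling, among them P2ry12, Tmem119 and Siglech, with which they sense nucleotides and other signals of damage. After injury they can divide, take up debris and switch on genes of lipid handling, lysosomes and antigen presentation, while genes of the resting set are lowered. Macrophages that enter from the blood come to express many of the same genes, so both kinds of cell have to be kept apart before their RNA is compared.

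Inpp5d, a lipid phosphatase of immune cells that the gate did not use, stood at 1299 and 1533 CPM in the NS libraries and 1551 and 1565 CPM in the COL libraries, where CPM is the normalised number of UMIs of a gene per 1000000 UMIs, against 5.03 to 28.4 CPM in the 29889 nuclei under the immune threshold. Csf1r, which the gate did not use either, stood at 773 and 877 CPM in the NS libraries and 545 and 658 CPM in the COL libraries, against 7.5 to 17.3 CPM under the threshold. Both set the gate apart from the nuclei under the threshold in every library. They separated it less from the other immune nuclei. In the COL libraries Inpp5d stood at 916 and 921 CPM on the macrophage side and at 1465 and 1406 CPM in dividing microglia, the latter close to the gate (both in CPM without TMM, the scaling between libraries that edgeR applied to the gated nuclei). Csf1r stood at 192 and 242 CPM on the macrophage side and at 441 and 488 CPM in dividing microglia. All 12 listed microglial markers outside the gate were detected well enough to be tested.

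The genes that chose the nuclei are given as a description, without a test. Siglech, a sialic acid-binding receptor, stood at 959.99 and 942 CPM in the NS libraries and 633 and 483 CPM in the COL libraries. P2ry12, the purine receptor that directs microglial processes, stood at 925 and 810.3 CPM (NS) and 457 and 414 CPM (COL). Cx3cr1, the receptor of fractalkine, stood at 706 and 763 CPM (NS) and 525 and 515 CPM (COL). These 3 were lower in both COL libraries than in either NS library. The immune gene Ly86, a partner of a Toll-like receptor homologue, stood at 1112 and 1255 CPM (NS) and 2105 and 1698 CPM (COL) and was higher in the COL group. Fyb, an adaptor protein, stood at 874 and 1120.3 CPM (NS) and 1189 and 1245 CPM (COL) and Ikzf1, a transcription factor, at 799.99 and 1014 CPM (NS) and 1026 and 797 CPM (COL). The groups overlapped for Ikzf1 and not for Fyb. The macrophage gene F13a1 stood at 2.03 and 1.22 CPM (NS) and 13.95 and 25.4 CPM (COL) and Mrc1 at 2.03 and 2.44 CPM (NS) and 19.1 and 22.7 CPM (COL), and the rule held both low. At least 1 UMI of F13a1, Mrc1, Ccr2 or Ms4a7 was held by 5, 5, 30 and 83 gated nuclei in library order. Nuclei that met the rule through a single microglial UMI numbered 9, 11, 25 and 37 in the same order. Between 10 and 12 UMIs per 10000 of the immune genes, just inside the threshold, lay 16, 11, 2 and 16 gated nuclei, and between 8 and 10, just outside it, 13, 13, 8 and 16 nuclei.

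The gated microglia formed a larger share of the nuclei in the COL group but a smaller share of the immune nuclei. They were 3.51% (exact 95% binomial interval 3.15 to 3.89) and 3.4% (3.06 to 3.77) of all nuclei in the NS libraries. In the COL libraries they were 5.24% (4.69 to 5.84) and 7.65% (7.0 to 8.33). The means were 3.45% ± 0.0772 and 6.45% ± 1.70 (SD, n = 2), with p = 0.333 in a two-sided exact permutation test, the smallest value that 2 against 2 libraries allow. Intervals cover counting error only. The COL libraries had fewer nuclei in all (5930 and 6265 against 9662 and 10384), and the share does not give the number of microglia in the tissue. Of the nuclei over the immune threshold, the gate held 96.3% and 95.9% in the NS libraries and 47.8% and 48.8% in the COL libraries. The rest were 2, 6, 189 and 297 nuclei on the macrophage side of the gate, 1, 3, 65 and 105 dividing microglia, 4, 1, 26 and 37 T and NK cells and 6, 5, 59 and 64 other immune nuclei, in library order. Dividing nuclei thus made up 0.294% and 0.843% of the microglia in NS libraries and 17.3% and 18.0% in COL libraries. The class needed 2 UMIs in nuclei that were not thinned, and COL nuclei were deeper, so depth is part of this comparison.

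**Figure D1:**
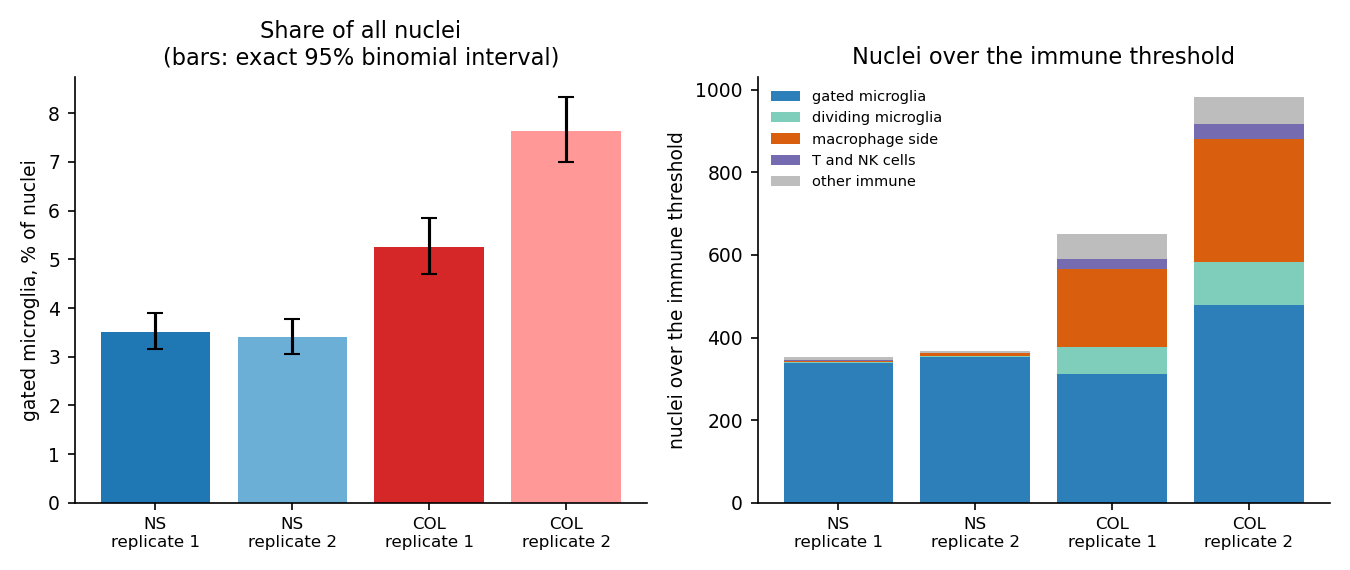
Left, gated microglia as a percentage of the nuclei in each library, with exact 95% binomial intervals; right, the number of nuclei over the immune threshold in each library by class. The COL libraries lie at 5.24% and 7.65% against 3.51% and 3.40% in the NS libraries, and about as many of their immune nuclei lie outside the gate as inside it.

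More UMIs were captured per gated nucleus in the COL group. Their median was 2346 and 2095 UMIs per nucleus in the NS libraries and 3897 and 4077 UMIs in the COL libraries, with 1595, 1435, 2247 and 2380 genes (exact permutation p = 0.333 for the UMIs, two-sided, the smallest possible). Nuclei under the immune threshold were deeper in the COL libraries too, at medians of 6744 and 4868 against 9609.5 and 10205 UMIs, and sequencing depth and RNA per nucleus cannot be told apart. Shares of gene lists per nucleus are therefore given after each nucleus had been thinned to 1000 UMIs, which left out 2 nuclei of NS replicate 1 and 3 nuclei of NS replicate 2. The classes of immune nuclei and the counts of gated nuclei with macrophage, T and NK or cell-division UMIs were taken without thinning.

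Comparison of the UMI sums per library asked which genes changed in microglia 7 days after the haemorrhage. Among 12008 genes tested with edgeR's quasi-likelihood test, 1090 (9.08%) were higher and 1155 (9.62%) were lower in the COL group at an adjusted p under 0.05, and the median log2 fold change of all genes was 0.01. DESeq2 called 529 higher and 496 lower, and thinning all nuclei to 2000 UMIs gave 957 higher and 979 lower. Each library mattered for these counts. Without COL replicate 1 they fell to 534 and 483 and without NS replicate 2 to 609 and 658. Without NS replicate 1 they were 753 and 807 and without COL replicate 2 they were 811 and 997, and 691 of the 2245 calls held in all 4 of these fits. These p-values measure only the spread between the pooled libraries. The nuclei under the immune threshold often moved the same way. Of the 1155 genes called lower, 990 (85.7%) were also lower there in both COL libraries than in both NS libraries, against 34.3% of all genes tested. Of the 1090 called higher, 735 (67.4%) were also higher there, against 27.9%. Leaving out 1 library moved the fold by over 1.5 times for 47 of the 104 called genes that had been chosen for naming. For these the value without that library is given with the fold where one is printed. The shares of 9.08% higher and 9.62% lower are the background of each list count below. A gene near 0 in the NS libraries was tested only where its COL counts passed the filter on low counts, so it could not be called lower. The counts and medians of lists with such members are a description. Of the called genes described below, 25 were not called by DESeq2, at adjusted p-values of 0.0518 to 0.428. They were P2ry13, Fcrls, Sqle, Ctsz, Ftl1, Fth1, Nfe2l2, C3ar1, Cfp, Tap1, H2-K1, Ccl12, Cxcl16, Cd14, Tlr3, Tlr7, Clec7a, Knl1, Jund, Runx2, Hif1a, Gapdh, Scd2, Il18 and Ifngr1.

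Other RNA moved with the groups and is given here because it touches every list below. Summed over 16 macrophage markers that the gate did not use, gated microglia held 32.99 and 24.01 CPM in the NS libraries and 251 and 456 CPM in the COL libraries, and nuclei on the macrophage side of the COL libraries 3532 and 3236 CPM. The 6 members that could be tested were all higher. Those near 0 in the NS libraries passed the filter on low counts through the COL libraries and could not be called lower, so this count is a description. Among the 6 members Fn1, which encodes fibronectin, stood at 0 and 1.22 CPM (NS) and 72.7 and 97.9 CPM (COL). Lyz2, the lysozyme of myeloid cells, stood at 1.01 and 7.32 CPM (NS) and 43.3 and 119 CPM (COL) and Itga4, an integrin of circulating leukocytes, at 3.04 and 0 CPM (NS) and 29.4 and 56.4 CPM (COL). Of 9 T and NK cell markers, 5 were tested and 3 were higher, with sums of 70.1, 52.8, 165 and 204 CPM in library order. Neuron markers (4 of 8 tested higher) summed to 3531, 2712, 5916 and 4712 CPM in that order. Markers of oligodendrocyte precursors (3 of 4 tested higher) summed to 282, 303, 939 and 823 CPM. Astrocyte markers (5 of 7 tested lower) summed to 1073, 1113, 708 and 625 CPM. Oligodendrocyte markers (3 of 8 tested lower) summed to 3557, 4066, 2047 and 3603 CPM, and the endothelial and pericyte lists had 1 tested member each. The pericyte list summed to 16.5, 25.2, 4.79 and 4.69 CPM. Gated nuclei with at least 2 UMIs of T and NK cell genes numbered 0, 0, 6 and 17. Without the 10% of gated nuclei that held the most UMIs of neurons and glia in each library, 1186 genes were higher and 1324 lower. The part of the macrophage and T cell RNA in the changes below was not tested.

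Genes of the resting state were mostly lower. Of 19 listed genes that the gate did not use, all were tested, 11 fell and 1 rose, and their median log2 fold change was -0.67 against 0.01 over all genes. Gpr34, a lysophosphatidylserine receptor of microglia, stood at 271 and 319.7 CPM in the NS libraries and 138 and 116 CPM in the COL libraries (log2 fold change -1.22, SE 0.18, adjusted p = 0.00156). Slc2a5, a fructose transporter, stood at 76.96 and 84.2 CPM in the NS libraries and 32.3 and 29.7 CPM in the COL libraries (log2 fold change -1.38, SE 0.24, adjusted p = 0.00324). Neither gene overlapped between the groups, and both were low on the macrophage side of the COL libraries, at 6.18 and 14.4 CPM for Gpr34 and 0 and 1.25 CPM for Slc2a5. Gpr34 also lay lower in the COL nuclei under the immune threshold (3.48 and 5.13 CPM in NS and 1.49 and 3.31 CPM in COL libraries), as did Slc2a5 (1.37 and 0.899 CPM in NS and 0.513 and 0.699 CPM in COL libraries), and the tests of the difference between the changes did not pass (adjusted p = 0.567 for Gpr34 and 0.794 for Slc2a5). The difference of Gpr34 was -0.31 with all libraries and -0.88 without COL replicate 1, but 0.38 without COL replicate 2. Its sign thus rested on a single library. Against all nuclei outside the gate the difference of Gpr34 was -0.75 and passed (adjusted p = 0.00319). Cst3, which encodes cystatin C, an inhibitor of cathepsins, stood at 739 and 1403 CPM in the NS libraries and 251 and 299 CPM in the COL libraries (log2 fold change -1.96, SE 0.26, adjusted p = 0.000921). It was also lower outside the gate, at 174 and 227 CPM in the NS and 32.5 and 84.04 CPM in the COL nuclei under the immune threshold. Tmem119, a membrane protein used as a microglial marker, stood at 109 and 109.8 CPM (NS) and 63.1 and 43.7 CPM (COL) (log2 fold change -1.06, SE 0.23, adjusted p = 0.0092). The call of Tmem119 was lost without COL replicate 2 (adjusted p = 0.0577). P2ry13, a purine receptor related to P2ry12, stood at 37.5 and 28.1 CPM (NS) and 16.9 and 10.5 CPM (COL) (log2 fold change -1.32, SE 0.36, adjusted p = 0.0249). The call of P2ry13 was lost without NS replicate 1 (adjusted p = 0.171) and without COL replicate 2 (adjusted p = 0.116). Only Gpr34, Slc2a5 and Cst3 of the 12 called genes were called in each of the 4 fits that left out 1 library.

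Other microglial genes did not pass the test in these libraries. For Csf1r the log2 fold change was -0.45 (SE 0.17, adjusted p = 0.0867) at the levels given above, with both COL libraries under both NS libraries, and without COL replicate 2 the adjusted p was 0.0494. Inpp5d differed by 0.14 on the log2 scale (SE 0.17, adjusted p = 0.614). Fcrls, an Fc receptor-like gene of mouse microglia, was the single resting gene that was called higher, at 229.9 and 222 CPM (NS) and 316 and 335 CPM (COL) (log2 fold change 0.53, SE 0.16, adjusted p = 0.0427), and that call was lost whichever library was left out (adjusted p 0.0782 to 0.252).

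The share of resting genes was also compared per nucleus. Summed over the 19 genes, they took a median of 1.2% and 1.3% of 1000 UMIs per nucleus in the NS libraries and 0.7% and 0.8% in the COL libraries (exact permutation p = 0.333, two-sided, the smallest possible). The means were 1.22%, 1.32%, 0.795% and 0.793%, and the 10th to 90th percentiles ran from 0.6 to 1.8%, 0.7 to 1.9%, 0.3 to 1.3% and 0.3 to 1.4% in the same order. Each of these percentiles was lower in both COL libraries than in both NS libraries. Tgfbr1, a TGF-β receptor subunit that was named after its values had been seen, was found at 1000 UMIs in 82.8%, 81.7%, 64.95% and 58.9% of gated nuclei in library order, against 1.83 to 2.91% of neurons thinned to the same depth, which are nuclei under the immune threshold with at least 20 UMIs per 10000 of Snap25, Syt1 and Rbfox3. Without thinning the shares were 96.4%, 92.9%, 91.96% and 90.4%. The log2 fold change of its UMI sum was -0.67 (SE 0.18, adjusted p = 0.0213), and the call was lost without NS replicate 1 (adjusted p = 0.127) and without NS replicate 2 (adjusted p = 0.208).

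**Figure D2:**
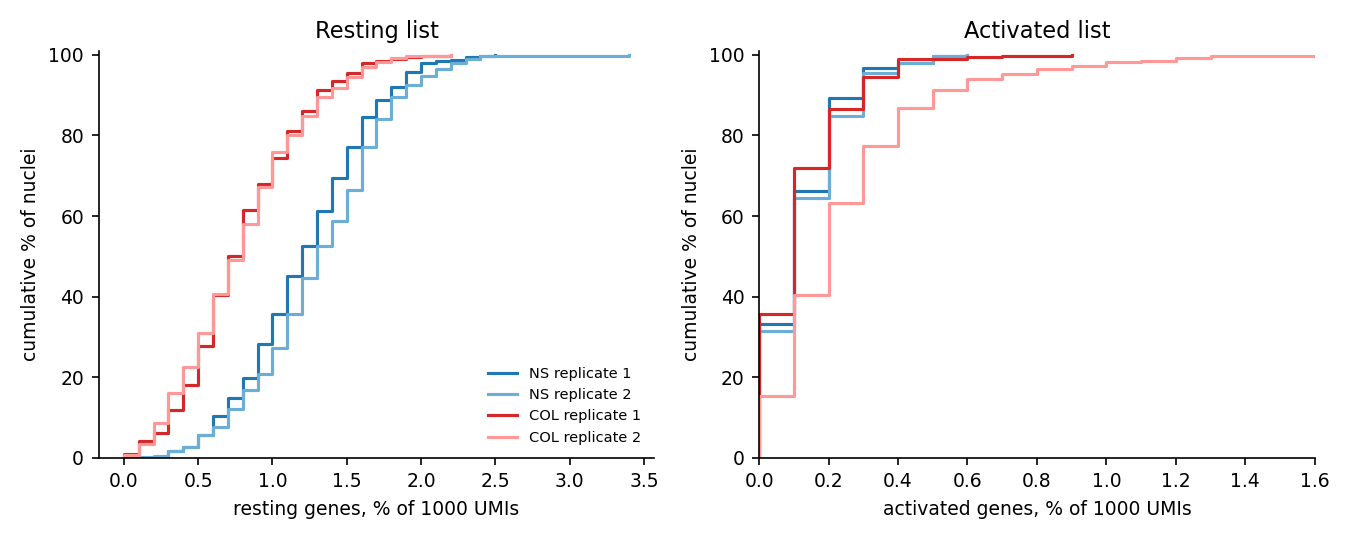
Cumulative percentage of gated nuclei (vertical axis) by the share of 1000 UMIs that came from the 19 resting genes (left) or the 22 activated genes (right), with 1 line per library. The resting share had medians of 1.2% and 1.3% in the NS and 0.7% and 0.8% in the COL libraries, whereas the activated share was raised in COL replicate 2 alone, with 1 UMI equal to 0.1%.

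Genes of activated microglia rose in 11 of 17 tested (22 listed) and fell in none, with a median log2 fold change of 2.22, which stayed at 2.22 with genes absent from the NS libraries set to their lower bounds. Members near 0 in the NS libraries, such as Gpnmb, Lgals3 and Cybb, passed the filter on low counts through the COL libraries. They could not be called lower, so the count and the median are a description. Gpnmb, a glycoprotein of lysosomes and phagosomes, stood at 0 and 0 CPM in the NS libraries and 22.03 and 114 CPM in the COL libraries. Against a floor of 3 UMIs in each NS library it was at least 20.3-fold higher in the COL group (adjusted p = 0.00349). The bound was 34.1-fold without COL replicate 1 and 6.58-fold without COL replicate 2. Its level in nuclei under the immune threshold was 16.9 and 28.04 CPM in the COL libraries, so that COL replicate 1 lay close to that level and COL replicate 2 well above it. At 1000 UMIs, Gpnmb was found in 1.29% and 6.05% of gated nuclei of COL replicates 1 and 2 and in 1.05% and 1.66% of their neurons. In COL replicate 1 the share of gated nuclei thus lay close to that of neurons, and the source of this RNA was not tested. Without thinning the shares were 3.86% and 17.1% of gated nuclei and 8.8% and 19.6% of neurons, whose median depth was 15039 and 15501 UMIs against 3897 and 4077. Spp1, the secreted phosphoprotein osteopontin, stood at 1.01 and 13.4 CPM in the NS libraries and 81.5 and 210.3 CPM in the COL libraries (log2 fold change 4.45, SE 0.62, adjusted p = 0.00125, and 3.47 without NS replicate 1, 7.09 without NS replicate 2 and 3.57 without COL replicate 2), with 17.2 and 49.2 CPM under the immune threshold in the COL libraries. At 1000 UMIs Spp1 was found in 4.5% and 12.1% of gated nuclei of COL replicates 1 and 2. It was also found in 7.69% and 8.11% of their T and NK nuclei (2 of 26 and 3 of 37). Lgals3, a galectin that binds damaged lysosomes, stood at 1.01 and 0 CPM (NS) and 44.1 and 68.6 CPM (COL) and had risen 107-fold (95% counting interval 19.1 to 4263, and 58.7-fold without NS replicate 2) (adjusted p = 0.000242). Cybb, a subunit of the phagocyte NADPH oxidase, was at 0 in both NS libraries and at 11.01 and 24.9 CPM in the COL libraries, at least 5.36-fold higher (adjusted p = 0.00349), with a bound of 3.29-fold without COL replicate 2, where it was not tested.

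A pair of secreted factors of this list was more abundant in gated microglia than on the macrophage side. Igf1, an insulin-like growth factor, stood at 6.08 and 6.1 CPM in the NS libraries and 63.1 and 172 CPM in the COL libraries (log2 fold change 4.28, SE 0.55, adjusted p = 0.000774, and 3.33 without COL replicate 2), and at 31.95 and 143 CPM in the macrophage-side nuclei of COL replicates 1 and 2. Under the immune threshold Igf1 stood at 18.6 and 25.6 CPM (NS), above the gated NS nuclei, and at 33.0 and 28.4 CPM (COL). At 1000 UMIs it was found in 3.54% and 7.1% of gated nuclei of COL replicates 1 and 2. The shares of their neurons were 3.32% and 2.64%, so that COL replicate 1 lay close to its neurons. Lpl, lipoprotein lipase, stood at 4.05 and 2.44 CPM (NS) and 29.4 and 67.3 CPM (COL) (log2 fold change 3.87, SE 0.58, adjusted p = 0.00156, and 3.09 without COL replicate 2) and at 14.4 and 34.4 CPM on the macrophage side. Both genes were named after their values had been seen, and the difference between gated and macrophage-side nuclei was not tested. In both, COL replicate 2 was the higher library. The same held for the share of all 22 activated genes per nucleus, whose mean was 0.117% and 0.126% of 1000 UMIs in the NS and 0.114% and 0.248% in the COL libraries (exact permutation p = 1, two-sided), so that COL replicate 1 was not above the NS libraries in this sum, which is weighted by the most abundant members.

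Apoe was the most abundant of these and it split the COL group. Apoe, the main lipid carrier of the brain, stood at 409 and 495 CPM in the NS libraries and 181 and 755 CPM in the COL libraries (log2 fold change 0.07, SE 0.43, adjusted p = 0.938). COL replicate 1 lay under both NS libraries and COL replicate 2 above both. Without COL replicate 1 the log2 fold change was 0.75 (adjusted p = 0.0342), and without COL replicate 2 it was -1.33 (adjusted p = 0.0103), so the direction of Apoe rested on a single library. In nuclei under the immune threshold both COL libraries were lower (67.9 and 248 CPM, against 265 and 269.8 CPM in the NS libraries), COL replicate 1 again by more. On the macrophage side Apoe stood at 1705 and 3055 CPM. Trem2, a lipid-sensing receptor of microglia, stood at 102 and 128 CPM (NS) and 96.2 and 99.7 CPM (COL) (log2 fold change -0.23, SE 0.2, adjusted p = 0.457).

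The letters TGANTCA, where N is any base, were searched as a loose form of the site of AP-1, a family of factors that respond to stress and growth signals. Whether AP-1 binds each form of these letters was not tested. Matches on either strand lay in the promoters (250 bases before to 50 after a start, RefSeq on GRCm38.p6) of 7 of the 17 activated genes with a promoter in the table (33.3% of their 21 promoters). The 7 were Cd68, Cst7, Cybb, Gpnmb, Igf1, Itgax and Trem2. Among them Cst7 and Itgax were not tested in microglia, and Trem2 was not called. The share was 7.81% of all 32851 promoters and 4.77% of those of genes tested in microglia. Among genes at least 2 times enriched in microglia it was 8.26% of the promoters of those called higher and 3.94% of those called lower. A match is a description of the sequence only. The windows of Gpnmb and Igf1 are shown because both genes changed as described above. Capitals mark the match, and the letters run 5′ to 3′ along the gene.
Gpnmb, chr6:49036486-49036567, plus strand: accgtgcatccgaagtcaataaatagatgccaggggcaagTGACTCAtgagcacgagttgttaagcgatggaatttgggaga
Igf1, chr10:87861034-87861120, plus strand: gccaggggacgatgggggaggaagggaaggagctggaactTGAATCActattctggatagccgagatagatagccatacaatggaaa
The match of Gpnmb began 9 bases into the transcribed side of the start and that of Igf1 37 bases before a start. The open base was C in the match of Gpnmb and A in that of Igf1.

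**Figure D3:**
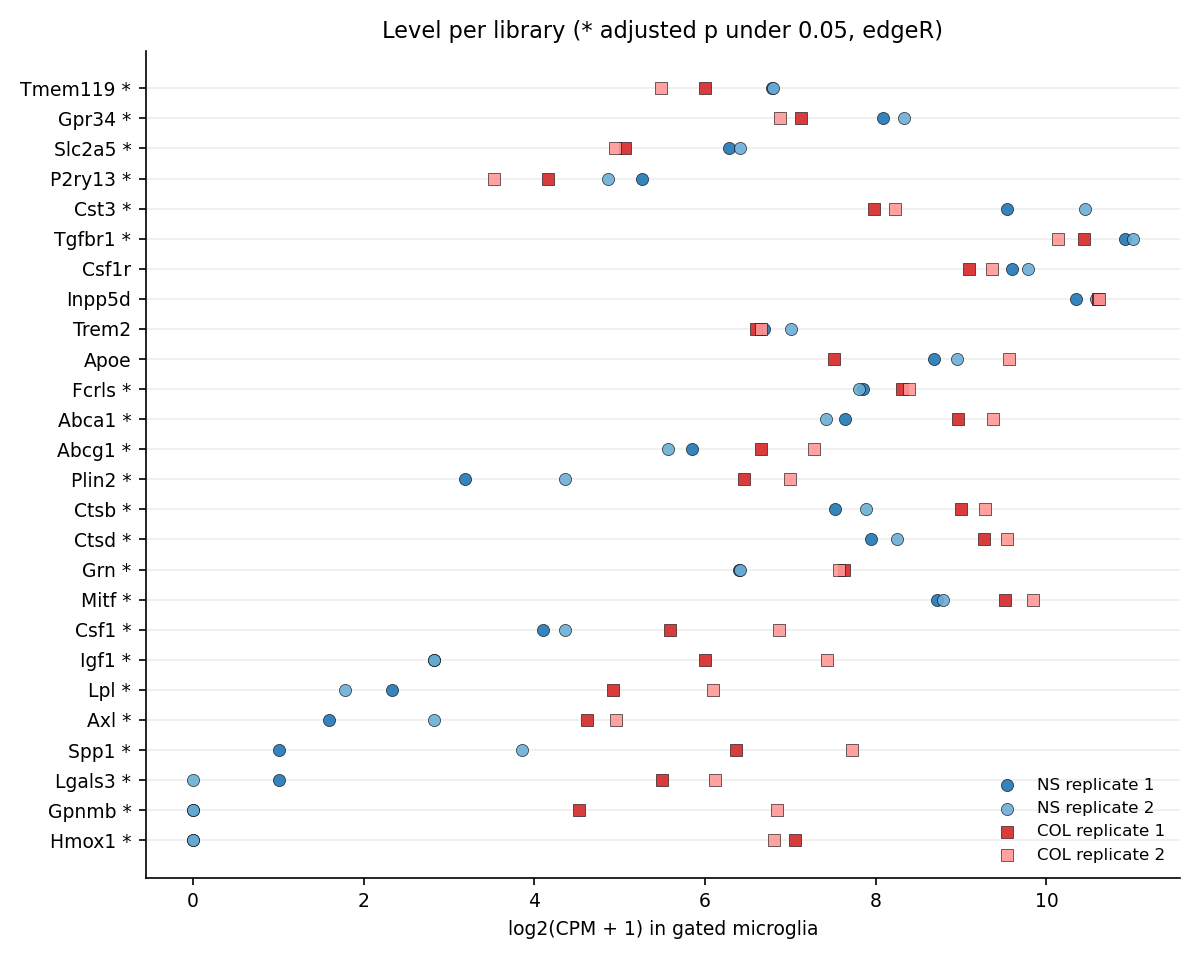
Level of named genes in the gated microglia of each library on a log2(CPM + 1) axis, with 1 point per library and an asterisk at genes with an adjusted p under 0.05. Tmem119, Gpr34 and Slc2a5 were lower in both COL libraries, Inpp5d lay close in the 2 groups, Apoe had a COL library on either side of the NS libraries, and Abca1, Igf1 and Hmox1 were higher in both COL libraries.

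Genes of lipid efflux and storage changed in part. Of 18 listed genes 17 were tested, 5 were higher and 1 was lower, with a median log2 fold change of 0.27, beside 9.08% higher and 9.62% lower over all genes tested. The lower gene was Scd2, a stearoyl-CoA desaturase named after its values were seen, at 476 and 671 CPM (NS) and 149.8 and 317 CPM (COL) (log2 fold change -1.28, SE 0.29, adjusted p = 0.0107, and -1.95 without COL replicate 2). Its call was lost without COL replicate 1 (adjusted p = 0.0543). Abca1, the transporter that loads cholesterol onto apolipoproteins, stood at 198 and 169.6 CPM in the NS libraries and 499 and 661 CPM in the COL libraries (log2 fold change 1.66, SE 0.19, adjusted p = 0.00052). At 1000 UMIs it was found in 18.1%, 14.6%, 34.4% and 41.96% of gated nuclei in library order, against 1.13 to 2.64% of neurons, and without thinning in 42.4%, 29.4%, 71.1% and 78.9%. Its level was raised in both COL libraries and was called in each fit without 1 library. It lay near that of the macrophage side (597 and 670.2 CPM). Abcg1, which passes cholesterol to lipoproteins, stood at 56.7 and 46.4 CPM (NS) and 99.9 and 154 CPM (COL) (log2 fold change 1.31, SE 0.25, adjusted p = 0.00571). Plin2, a coat protein of lipid droplets, stood at 8.1 and 19.5 CPM (NS) and 86.6 and 127 CPM (COL) (log2 fold change 3.0, SE 0.36, adjusted p = 0.000569, and 3.73 without NS replicate 2). Ch25h, which makes 25-hydroxycholesterol, was at 0 in the NS libraries and at 10.3 and 13.1 CPM in the COL libraries, at least 3.49-fold higher (adjusted p = 0.00383). On the macrophage side it stood at 1.03 and 1.88 CPM. The call of Ch25h was lost without COL replicate 1, and without COL replicate 2 the gene was not tested. Mylip, which degrades lipoprotein receptors, stood at 264 and 219.7 CPM (NS) and 335 and 333 CPM (COL) (log2 fold change 0.46, SE 0.17, adjusted p = 0.0792). Of 12 genes of cholesterol synthesis, 10 were tested, none was higher and 1 was lower, with a median of -0.57, and 1 of 10 is near the 9.62% called lower over all genes tested. The lower gene was Sqle, squalene epoxidase, at 28.4 and 32.95 CPM (NS) and 13.95 and 11.4 CPM (COL) (log2 fold change -1.29, SE 0.34, adjusted p = 0.0213), whose call was lost without NS replicate 1 (adjusted p = 0.0505) and without NS replicate 2 (adjusted p = 0.115) and without COL replicate 2 (adjusted p = 0.079). Srebf2, the transcription factor that governs the pathway, stood at 82.02 and 87.9 CPM (NS) and 53.6 and 57.7 CPM (COL) (log2 fold change -0.6, SE 0.21, adjusted p = 0.0683).

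Of 17 lysosomal genes 15 were tested, 4 were higher and none was lower, with a median log2 fold change of 0.33, beside 9.08% higher and 9.62% lower over all genes tested. Ctsb, the protease cathepsin B, stood at 183 and 236 CPM in the NS libraries and 512 and 620.3 CPM in the COL libraries (log2 fold change 1.44, SE 0.19, adjusted p = 0.00089). Ctsd, cathepsin D, stood at 246 and 303 CPM in the NS libraries and 616 and 744 CPM in the COL libraries (log2 fold change 1.31, SE 0.18, adjusted p = 0.00124). Grn, the lysosomal protein progranulin, stood at 83.04 and 84.2 CPM (NS) and 198 and 188 CPM (COL) (log2 fold change 1.2, SE 0.18, adjusted p = 0.00161). These 3 were separated between the groups, were called in each fit without 1 library, and were higher still on the macrophage side, at 1338 and 1460.5 CPM for Ctsb. Ctsz was called at 94.2 and 93.97 CPM (NS) and 160.1 and 156 CPM (COL) (log2 fold change 0.75, SE 0.18, adjusted p = 0.0149). The call of Ctsz was lost without NS replicate 1 (adjusted p = 0.0784) and without NS replicate 2 (adjusted p = 0.0747) and without COL replicate 1 (adjusted p = 0.0588). Ctss, cathepsin S, which was not called, stood at 427 and 574 CPM (NS) and 512 and 575 CPM (COL) (log2 fold change 0.12, SE 0.18, adjusted p = 0.686).

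The letters TCACGTG, an E-box bound by the MiT/TFE factors that act on lysosomal genes, lay on either strand in the promoters of 4 of the 12 lysosomal genes in the table (Atp6v1a, Ctsd, Lamp1 and Mcoln1), against 3.77% of all promoters and 6.04% of those of genes tested in microglia. Among genes that were at least 2 times enriched in microglia it lay in 4.56% of the promoters of those called higher and 6.45% of those called lower. It also lay in the promoters of the gate genes P2ry12 and Siglech. The levels of these gate genes carry no test. Windows are shown for them and for the called genes Ctsd and Plin2, with the match in capitals.
P2ry12, chr3:59263167-59263235, minus strand: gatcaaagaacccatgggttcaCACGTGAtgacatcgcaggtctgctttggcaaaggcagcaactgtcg
Siglech, chr7:55768087-55768174, plus strand: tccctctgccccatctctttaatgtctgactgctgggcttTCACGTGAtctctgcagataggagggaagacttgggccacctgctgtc
Ctsd, chr7:142387879-142387966, minus strand: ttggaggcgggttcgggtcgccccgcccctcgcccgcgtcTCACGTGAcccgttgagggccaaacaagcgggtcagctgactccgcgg
Plin2, chr4:86670018-86670104, minus strand: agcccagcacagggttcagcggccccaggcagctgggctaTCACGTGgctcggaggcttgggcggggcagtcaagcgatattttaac
Mitf, a factor of that family, stood at 419 and 441 CPM in the NS libraries and 731 and 918 CPM in the COL libraries (log2 fold change 0.94, SE 0.18, adjusted p = 0.00459) and was found in 36.2%, 32.6%, 47.9% and 55.5% of gated nuclei at 1000 UMIs in library order, against 4.13 to 7.94% of neurons. Without thinning the shares were 59.9%, 54.6%, 81.03% and 87.7%. Tfec, another member, stood at 0 and 1.22 CPM (NS) and 22.8 and 25.8 CPM (COL) and had risen 44.6-fold (95% counting interval 7.8 to 1779, and 20.2-fold without NS replicate 1) (adjusted p = 0.00128).

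Hmox1 encodes haem oxygenase 1, which breaks haem down to iron, carbon monoxide and biliverdin. It stood at 0 and 0 CPM in the NS libraries and 132 and 111 CPM in the COL libraries, at least 36.3-fold higher (adjusted p = 2.48e-05), and at 20.4 and 18.7 CPM in the nuclei under the immune threshold of the COL libraries. At 1000 UMIs it was found in 6.75% and 6.05% of gated nuclei of COL replicates 1 and 2, against 0.758% and 1.08% of their neurons, and without thinning in 15.8% and 17.5% against 13.4% and 15.7% of the deeper neurons. It was found in 0 of 337 and 0 of 350 gated NS nuclei, which allows shares of nuclei with a UMI at this depth of up to 0.89% and 0.857%. Macrophage-side nuclei held more of it, at 738 and 234 CPM. Of the 20 genes of haem and iron handling 18 were tested, 3 were higher and 1 was lower, with a median of 0.12, beside 9.08% higher and 9.62% lower over all genes tested. The chains of ferritin were called in opposite directions, and DESeq2 called neither. The light chain Ftl1 stood at 57.7 and 56.1 CPM (NS) and 85.2 and 235 CPM (COL) (log2 fold change 1.52, SE 0.38, adjusted p = 0.0175, and 0.56 without COL replicate 2). The call of Ftl1 was lost without COL replicate 2 (adjusted p = 0.147). The heavy chain Fth1 stood at 652 and 1029 CPM (NS) and 167 and 536 CPM (COL) (log2 fold change -1.24, SE 0.39, adjusted p = 0.0446, and -0.63 without COL replicate 1 and -2.34 without COL replicate 2). The call of Fth1 was lost without NS replicate 2 (adjusted p = 0.0596) and without COL replicate 1 (adjusted p = 0.16). In the nuclei under the threshold Fth1 stood at 341 and 476 CPM (NS) and 90.5 and 338 CPM (COL), and the difference between the changes did not pass (difference -0.19, SE 0.18, adjusted p = 0.763). COL replicate 2 was the higher COL library for both chains. Nfe2l2, the factor that induces Hmox1 under oxidative stress, stood at 151 and 150.1 CPM (NS) and 231 and 221 CPM (COL) (log2 fold change 0.59, SE 0.17, adjusted p = 0.0317), and its call was lost whichever library was left out (adjusted p 0.0701 to 0.171).

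Interferon response genes rose in 9 of 15 tested (21 listed) and fell in none, with a median log2 fold change of 1.08. Irf7, Ifit1, Ifit3, Isg15, Rsad2 and Gbp2 were too low to be tested. Ifi207, a nucleic acid sensor of the p200 family, stood at 0 and 1.22 CPM (NS) and 46.99 and 58.1 CPM (COL) and had risen 97.5-fold (95% counting interval 17.3 to 3872, and 44.2-fold without NS replicate 1) (adjusted p = 0.000242). Ifi204, of the same family, stood at 8.1 and 10.98 CPM (NS) and 38.2 and 66.4 CPM (COL) (log2 fold change 2.49, SE 0.4, adjusted p = 0.00221), and reads of these related genes could be shared by their copies. Mx1, an antiviral GTPase, stood at 6.08 and 6.1 CPM (NS) and 19.1 and 52.5 CPM (COL) (log2 fold change 2.6, SE 0.56, adjusted p = 0.00866, and 1.61 without COL replicate 2), and Oasl2, of the oligoadenylate synthetase family, at 5.06 and 4.88 CPM (NS) and 18.4 and 38.03 CPM (COL) (log2 fold change 2.53, SE 0.52, adjusted p = 0.0069, and 1.84 without COL replicate 2). Both calls were lost without COL replicate 2 (adjusted p = 0.0879 for Mx1 and 0.0785 for Oasl2). Of 16 antigen presentation genes 11 were tested, 5 were higher and none was lower, with a median of 0.71. Cd74, the invariant chain of MHC class II, stood at 3.04 and 4.88 CPM (NS) and 32.3 and 99.2 CPM (COL) (log2 fold change 4.1, SE 0.65, adjusted p = 0.00198, and 3.0 without COL replicate 2) but at 404 and 693 CPM on the macrophage side. Nlrc5, the activator of MHC class I genes, stood at 12.2 and 15.9 CPM (NS) and 99.1 and 83.5 CPM (COL) (log2 fold change 2.7, SE 0.29, adjusted p = 0.00033), close to the macrophage side (129 and 126 CPM). H2-K1, a class I chain, stood at 33.4 and 30.5 CPM (NS) and 78.6 and 60.8 CPM (COL) (log2 fold change 1.11, SE 0.26, adjusted p = 0.0137). The call of H2-K1 was lost without NS replicate 2 (adjusted p = 0.0531) and without COL replicate 1 (adjusted p = 0.0587). Tap1, a peptide transporter, stood at 5.06 and 4.88 CPM (NS) and 18.4 and 17.05 CPM (COL) (log2 fold change 1.8, SE 0.46, adjusted p = 0.0189), with a call lost whichever library was left out (adjusted p 0.0785 to 0.0951).

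The interferon-stimulated response element, searched as GAAA, any 2 bases and GAAA on either strand, lay in the promoters of 10 of the 16 interferon response genes in the table and in 3.44% of all promoters. Among the 10 were Gbp2, Ifit1, Ifit3, Isg15 and Rsad2, which were not tested in microglia. The element lay in 7.12% of the promoters of microglia-enriched genes called higher and 5.02% of those called lower. Windows of 3 genes that were called higher are shown with the match in capitals, of which Trim30a, an interferon-induced ubiquitin ligase, and B2m, the light chain of MHC class I, were named after their values had been seen.
Ifi207, chr1:173741801-173741890, minus strand: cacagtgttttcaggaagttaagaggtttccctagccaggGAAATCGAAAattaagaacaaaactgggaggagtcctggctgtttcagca
Trim30a, chr7:104446076-104446163, minus strand: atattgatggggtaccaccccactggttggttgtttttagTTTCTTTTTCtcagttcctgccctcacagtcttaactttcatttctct
B2m, chr2:122147508-122147597, plus strand: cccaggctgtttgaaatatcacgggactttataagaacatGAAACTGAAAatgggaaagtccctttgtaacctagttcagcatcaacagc
In Trim30a the match is on the other strand.

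Of 13 complement genes 10 were tested, 5 were higher and none was lower, with a median log2 fold change of 0.68. C4b, of the classical pathway, stood at 0 and 1.22 CPM (NS) and 25.7 and 42.8 CPM (COL) and had risen 65.8-fold (95% counting interval 11.6 to 2620.2, and 29.9-fold without NS replicate 1) (adjusted p = 0.000828). Outside the gate it went from 0.928 and 1.25 to 26.4 and 46.5 CPM in the nuclei under the immune threshold, which lay above the gated microglia of the same COL library. The test of the difference did not pass (difference 0.95, SE 1.24, adjusted p = 0.842). This difference was -0.061 without NS replicate 1 and 7.56 without NS replicate 2. C5ar1, the C5a receptor, stood at 16.2 and 13.4 CPM (NS) and 38.9 and 49.8 CPM (COL) (log2 fold change 1.58, SE 0.32, adjusted p = 0.00699). C3ar1, the C3a receptor, stood at 18.2 and 35.4 CPM (NS) and 56.5 and 66.01 CPM (COL) (log2 fold change 1.22, SE 0.31, adjusted p = 0.0189). The call of C3ar1 was lost without NS replicate 1 (adjusted p = 0.167) and without COL replicate 2 (adjusted p = 0.0921). Cfp, properdin, stood at 5.06 and 0 CPM (NS) and 11.01 and 15.3 CPM (COL) (log2 fold change 2.25, SE 0.71, adjusted p = 0.0448, and 7.33 without NS replicate 1 and 1.4 without NS replicate 2). The nuclei under the threshold held 9.86 and 8.73 CPM (NS) and 12.9 and 13.8 CPM (COL) of Cfp, close to the gated COL nuclei. The call of Cfp was lost without NS replicate 2 and without COL replicate 1, and without COL replicate 2 the gene was not tested. The initiating subunit C1qa stood at 223 and 300.2 CPM (NS) and 181 and 212 CPM (COL) (log2 fold change -0.4, SE 0.19, adjusted p = 0.163), with both COL libraries under the NS libraries. The receptors of complement products were thus among the called genes, and C1qa was not.

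Receptors of engulfment rose in 8 of 20 tested (21 listed) and fell in none, with a median log2 fold change of 0.14. Msr1, the class A scavenger receptor, stood at 2.03 and 3.66 CPM in the NS libraries and 77.1 and 90.5 CPM in the COL libraries (log2 fold change 4.88, SE 0.4, adjusted p = 8.03e-05), with 384 and 251 CPM on the macrophage side. Axl, a receptor for cells that expose phosphatidylserine, stood at 2.03 and 6.1 CPM (NS) and 23.5 and 30.2 CPM (COL) (log2 fold change 2.77, SE 0.5, adjusted p = 0.00399, and 2.15 without NS replicate 1 and 3.7 without NS replicate 2). Its relative Mertk was far more abundant and stood at 1498 and 1628 CPM (NS) and 1690.2 and 1668 CPM (COL) (log2 fold change 0.1, SE 0.16, adjusted p = 0.706). Cd36, a scavenger receptor of oxidised lipids, was at 0 in the NS libraries and at 17.6 and 14.4 CPM in the COL libraries, at least 4.78-fold higher (adjusted p = 0.00209), and at 119 and 116 CPM on the macrophage side. Clec7a, a glucan receptor of activated microglia, stood at 4.05 and 2.44 CPM (NS) and 11.01 and 28.9 CPM (COL) (log2 fold change 2.63, SE 0.64, adjusted p = 0.0154), and without COL replicate 2 it was not tested.

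Of the cytokine, chemokine and receptor genes 5 of 12 tested were higher and 2 lower (24 listed), with a median log2 fold change of -0.06, beside 9.08% higher and 9.62% lower over all genes tested. The lower genes, named after their values were seen, were Il18, a cytokine of the IL-1 family, at 87.1 and 92.7 CPM (NS) and 52.1 and 52.02 CPM (COL) (log2 fold change -0.79, SE 0.21, adjusted p = 0.024), and Ifngr1, a chain of the interferon gamma receptor, at 118 and 154 CPM (NS) and 86.6 and 90.1 CPM (COL) (log2 fold change -0.62, SE 0.2, adjusted p = 0.0487). Both calls were lost whichever library was left out (adjusted p 0.0701 to 0.138 and 0.0551 to 0.404). Csf1, the ligand of Csf1r, stood at 16.2 and 19.5 CPM in the NS libraries and 46.99 and 115 CPM in the COL libraries (log2 fold change 2.22, SE 0.42, adjusted p = 0.00519, and 1.38 without COL replicate 2). It was raised in both COL libraries and most in COL replicate 2, whereas its receptor was not called. Il4ra, a subunit of the receptors of IL-4 and IL-13, stood at 24.3 and 19.5 CPM (NS) and 63.9 and 83.5 CPM (COL) (log2 fold change 1.75, SE 0.28, adjusted p = 0.00227). Cxcl16, a chemokine, stood at 1.01 and 3.66 CPM (NS) and 12.5 and 11.8 CPM (COL) (log2 fold change 2.4, SE 0.63, adjusted p = 0.0213, and 1.71 without NS replicate 1 and 3.49 without NS replicate 2). The call of Cxcl16 was lost without NS replicate 1 (adjusted p = 0.205) and without COL replicate 1 (adjusted p = 0.175) and without COL replicate 2 (adjusted p = 0.148). Ccl12, another chemokine, stood at 2.03 and 6.1 CPM (NS) and 19.1 and 15.7 CPM (COL) (log2 fold change 2.12, SE 0.54, adjusted p = 0.0187, and 1.5 without NS replicate 1 and 3.05 without NS replicate 2). The call of Ccl12 was lost without NS replicate 1 (adjusted p = 0.16) and without COL replicate 1 (adjusted p = 0.12) and without COL replicate 2 (adjusted p = 0.0736). Of the pattern recognition genes 15 of 20 were tested, with 2 higher, 2 lower and a median of 0.27, beside 9.08% higher and 9.62% lower over all genes tested. Fgr, a kinase of the Src family, stood at 9.11 and 20.7 CPM (NS) and 45.5 and 81.3 CPM (COL) (log2 fold change 2.15, SE 0.41, adjusted p = 0.00496, and 2.82 without NS replicate 2) and was called in each fit without 1 library. Cd14, Tlr3 and Tlr7, which bind bacterial lipids, double-stranded RNA and single-stranded RNA, had log2 fold changes of -1.48 (adjusted p = 0.0333), -0.91 (adjusted p = 0.0445) and 0.57 (adjusted p = 0.0411). Each of these 3 calls was lost whichever of the 4 libraries was left out (adjusted p 0.0884 to 0.294, 0.0834 to 0.178 and 0.0674 to 0.212).

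**Figure D4:**
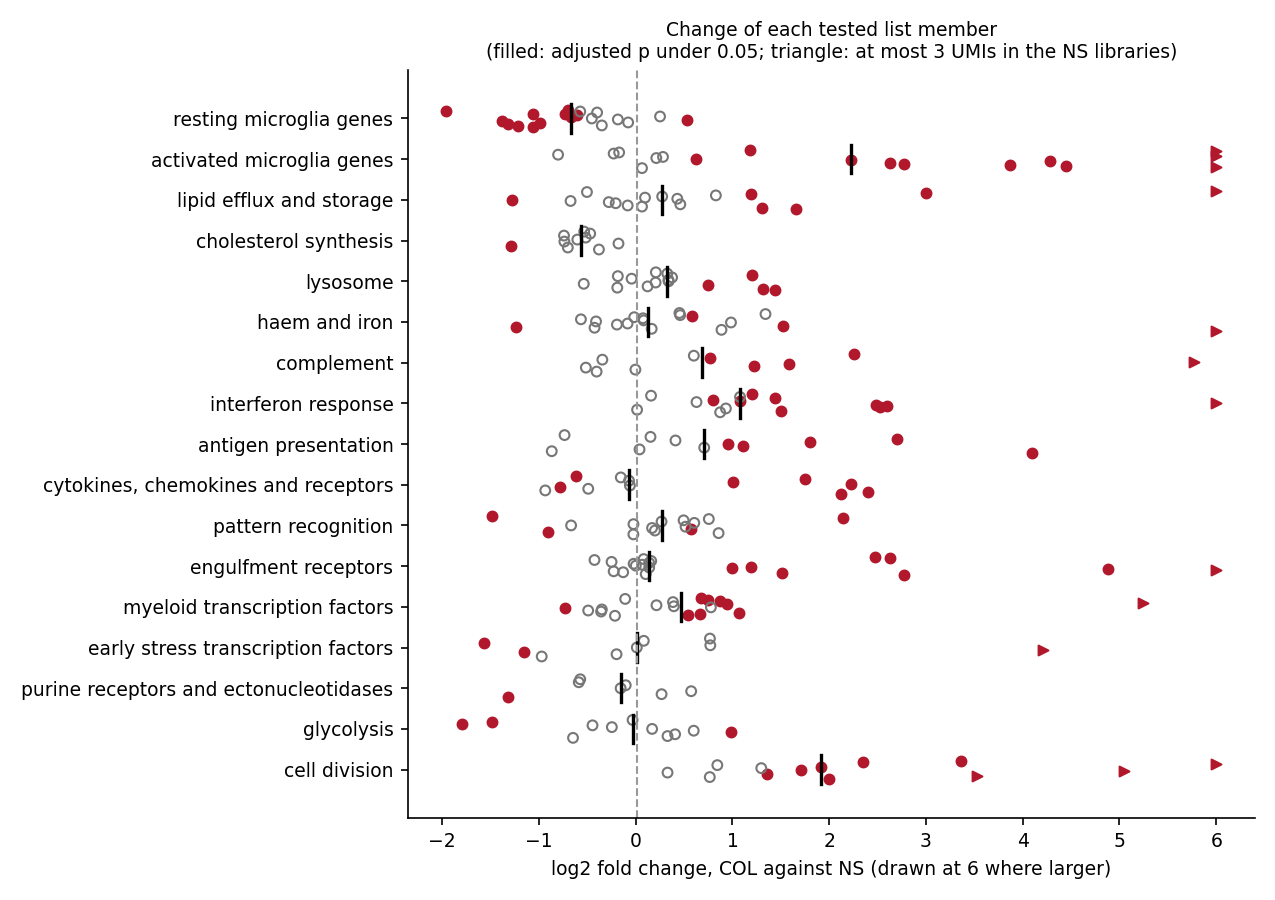
Log2 fold change (COL against NS) of each tested member of 17 lists, without the genes of the gate; filled points passed an adjusted p under 0.05, triangles had at most 3 UMIs in the NS libraries, black bars are list medians and the dashed line is the median of all genes. The resting list lies to the left (median -0.67) and the activated (2.22), interferon response (1.08) and cell division (1.92) lists to the right.

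Transcription factors of the myeloid lineage were higher in 8 of 18 tested (21 listed) and lower in 1, with a median log2 fold change of 0.47. The lower gene, named after its values were seen, was Mef2c, a MADS-box factor, at 1469 and 1534 CPM (NS) and 959 and 855 CPM (COL) (log2 fold change -0.73, SE 0.17, adjusted p = 0.0111). Its call was lost without NS replicate 1 (adjusted p = 0.0829) and without NS replicate 2 (adjusted p = 0.122). Beside Mitf and Tfec, Hif1a, a factor of the response to low oxygen, stood at 62.8 and 63.5 CPM (NS) and 124 and 108 CPM (COL) (log2 fold change 0.87, SE 0.21, adjusted p = 0.0134). The call of Hif1a was lost without NS replicate 1 (adjusted p = 0.0629) and without COL replicate 1 (adjusted p = 0.0631). Runx2 stood at 34.4 and 45.2 CPM (NS) and 82.2 and 83.9 CPM (COL) (log2 fold change 1.07, SE 0.24, adjusted p = 0.0102). The call of Runx2 was lost without NS replicate 1 (adjusted p = 0.0837). Spi1, which encodes PU.1, the factor that specifies myeloid cells, stood at 192 and 219.7 CPM (NS) and 169.6 and 184 CPM (COL) (log2 fold change -0.21, SE 0.17, adjusted p = 0.421). The element of PU.1, searched as GAGGA followed by AGT on either strand, lay in 3.202% of all promoters, 5.41% of those of microglia-enriched genes called higher and 5.38% of those called lower. Among 9 tested early stress factors (15 listed) 1 was higher and 2 were lower. Atf3 stood at 1.01 and 2.44 CPM (NS) and 24.96 and 38.5 CPM (COL) and had risen 20.1-fold (95% counting interval 6.73 to 98.98, and 33.01-fold without NS replicate 2) (adjusted p = 0.00114). Btg2 stood at 43.5 and 46.4 CPM (NS) and 17.6 and 13.1 CPM (COL) (log2 fold change -1.57, SE 0.31, adjusted p = 0.00586) and Jund at 55.7 and 74.4 CPM (NS) and 31.6 and 27.1 CPM (COL) (log2 fold change -1.15, SE 0.27, adjusted p = 0.0123). The call of Jund was lost without NS replicate 2 (adjusted p = 0.0993) and without COL replicate 2 (adjusted p = 0.0582). Of the purine receptors and ectonucleotidases 7 of 10 were tested and 1, P2ry13, was lower. Entpd1, which degrades ATP outside the cell, stood at 564 and 720.02 CPM (NS) and 500.004 and 365 CPM (COL) (log2 fold change -0.57, SE 0.2, adjusted p = 0.0629), and without COL replicate 1 it was lower at an adjusted p of 0.0403. Of 11 glycolysis genes 1 was higher and 2 were lower. The counts of these 3 lists stand beside 9.08% higher and 9.62% lower over all genes tested. Gapdh stood at 176 and 229 CPM (NS) and 29.4 and 82.2 CPM (COL) (log2 fold change -1.8, SE 0.34, adjusted p = 0.00464, and -2.79 without COL replicate 2) and Aldoa at 172 and 196 CPM (NS) and 37.4 and 89.2 CPM (COL) (log2 fold change -1.49, SE 0.3, adjusted p = 0.0065, and -2.31 without COL replicate 2). Both also lay lower in the COL nuclei under the immune threshold (93.9 and 110.1 against 16.1 and 46.97 CPM for Gapdh). Pfkfb3, which sets the pace of glycolysis, stood at 78.99 and 89.1 CPM (NS) and 142 and 187 CPM (COL) (log2 fold change 0.98, SE 0.21, adjusted p = 0.00755). The call of Pfkfb3 was lost without COL replicate 2 (adjusted p = 0.0591). The hexokinase Hk2 stood at 343 and 463 CPM (NS) and 206 and 304 CPM (COL) (log2 fold change -0.65, SE 0.22, adjusted p = 0.0549). It was called lower without NS replicate 1 (adjusted p = 0.0351) and without COL replicate 2 (adjusted p = 0.0328).

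Genes of cell division rose in 9 of 13 tested (22 listed) and fell in none, although dividing nuclei had been removed, with a median log2 fold change of 1.92, or 1.71 with genes absent from the NS libraries at their lower bounds. Members near 0 in the NS libraries, such as Brip1, Knl1 and Dtl, passed the filter on low counts through the COL libraries. They could not be called lower, so the count and the medians are a description. The gate allowed 1 UMI of Top2a or Mki67, which 2, 0, 20 and 48 gated nuclei held in library order. The part of these nuclei in the counts was not tested. Diaph3, a formin of dividing cells, stood at 4.05 and 2.44 CPM (NS) and 26.4 and 41.97 CPM (COL) (log2 fold change 3.36, SE 0.5, adjusted p = 0.00156). Brip1, a DNA helicase of repair, stood at 1.01 and 0 CPM (NS) and 19.8 and 22.3 CPM (COL) and had risen 38.6-fold (95% counting interval 6.73 to 1545, and 21.1-fold without NS replicate 2) (adjusted p = 0.00154). Knl1, of the kinetochore, had risen 11.9-fold (95% counting interval 3.12 to 100.9, and 6.49-fold without NS replicate 2) from 2.03 and 0 to 18.4 and 10.1 CPM (adjusted p = 0.0124), and was not tested without COL replicate 1. Dtl, of replication licensing, rose from 0 in both NS libraries to 9.54 and 11.8 CPM, at least 3.19-fold (adjusted p = 0.00454). The call of Dtl was lost without COL replicate 1, and without COL replicate 2 the gene was not tested.

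The 12 largest decreases among microglia-enriched genes were mostly of genes with provisional names, whose roles are not known from the files. Gm31243 stood at 61.8 and 85.4 CPM in the NS libraries and 5.87 and 6.56 CPM in the COL libraries (log2 fold change -3.52, SE 0.33, adjusted p = 0.000242), and Gm34408 at 43.5 and 64.7 CPM in the NS libraries and 2.94 and 5.25 CPM in the COL libraries (log2 fold change -3.6, SE 0.4, adjusted p = 0.000371). 6030468B19Rik stood at 33.4 and 41.5 CPM (NS) and 2.2 and 3.93 CPM (COL) (log2 fold change -3.48, SE 0.43, adjusted p = 0.00061). On the macrophage side Gm31243, the highest of these 3 there, stood at 2.06 and 1.88 CPM. Gm35188 was the most abundant of the 12 largest decreases, at 455 and 611 CPM (NS) and 59.5 and 122 CPM (COL) (log2 fold change -2.52, SE 0.28, adjusted p = 0.000371, and -3.17 without COL replicate 2), and 3222401L13Rik stood at 99.2 and 119.6 CPM (NS) and 24.96 and 21.4 CPM (COL) (log2 fold change -2.24, SE 0.24, adjusted p = 0.00033). Of the others Gm17231, Gm43221, Pard3bos1, Gm46367, Gm32036 and Gm10135 had log2 fold changes between -2.97 and -2.28 with all libraries. Without COL replicate 2 those of Pard3bos1, Gm46367, Gm32036 and Gm10135 were -3.99, -3.83, -3.56 and -3.17. Ubb, which encodes ubiquitin, stood at 205 and 268 CPM (NS) and 21.3 and 59.01 CPM (COL) (log2 fold change -2.48, SE 0.33, adjusted p = 0.000921, and -3.48 without COL replicate 2). All 12 were also lower in both COL libraries in the nuclei under the immune threshold, where Gm35188 stood at 117 and 165 CPM (NS) and 17.1 and 43.2 CPM (COL) and Ubb at 102 and 118 CPM (NS) and 11.4 and 38.9 CPM (COL). The change in microglia differed from the change there for 4 of the 12 (Gm31243, Gm17231, Gm32036 and 3222401L13Rik), and for Gm35188 that test did not pass (difference -0.24, SE 0.18, adjusted p = 0.655). The difference of 3222401L13Rik was not called by DESeq2 (adjusted p = 0.0525) or without COL replicate 2 (adjusted p = 0.593) or NS replicate 2 (adjusted p = 0.0566).

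The 12 largest increases by the same rule were Hmox1, Gpnmb, Fn1, Lgals3, Ifi207, Msr1 and Itga4, given above, and Gm2682, Xdh, Rab7b, Lilrb4a and Lilr4b. The minimum of 20 CPM and the enrichment were taken over all 4 libraries. All 12 were under 20 CPM in both NS libraries, and in those libraries 8 were less than 2 times as abundant in the gate as under the immune threshold, so they met the rule through the COL group and are a description. Gm2682, a gene with a provisional name, was at 0 in the NS libraries and at 38.2 and 55.1 CPM in the COL libraries, at least 13.9-fold higher (adjusted p = 0.00033). Xdh, xanthine oxidoreductase, which makes uric acid, stood at 0 and 1.22 CPM (NS) and 43.3 and 56.8 CPM (COL) and had risen 93.6-fold (95% counting interval 16.6 to 3715, and 42.4-fold without NS replicate 1) (adjusted p = 0.000242). Rab7b, a GTPase of late endosomes, stood at 1.01 and 1.22 CPM (NS) and 35.2 and 46.3 CPM (COL) and had risen 38.1-fold (95% counting interval 10.4 to 318) (adjusted p = 0.00033). The immune receptors Lilrb4a (1.01 and 2.44 CPM (NS) and 35.2 and 53.8 CPM (COL), adjusted p = 0.00052) and Lilr4b (2.03 and 1.22 CPM (NS) and 29.4 and 48.96 CPM (COL), adjusted p = 0.000722) are close copies and may share reads. Of the 12, 11, all but Gm2682, were higher on the macrophage side than in gated microglia in both COL libraries (all in CPM without TMM scaling), against 38.9% of the 1090 genes called higher and 32.5% of all genes tested. Selection by an enrichment that came in part from the COL libraries favoured a positive difference from the change under the immune threshold. The tests of that difference are therefore a description as well and give no support. The edgeR test of the difference from the change under the immune threshold passed for Gm2682, Fn1, Xdh, Rab7b and Itga4 (adjusted p 1.36e-12 to 0.00672). It did not pass for Hmox1 (adjusted p = 0.101), Gpnmb (0.238), Lgals3 (0.457), Ifi207 (0.997), Msr1 (0.776), Lilrb4a (0.524) or Lilr4b (0.436).

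Among called genes that were less than 2 times enriched in microglia, the largest decreases were those of Ptgds, prostaglandin D synthase, at 578 and 1509.6 CPM (NS) and 49.2 and 181 CPM (COL) (log2 fold change -3.13, SE 0.5, adjusted p = 0.00209, and -2.28 without NS replicate 2, -2.51 without COL replicate 1 and -4.41 without COL replicate 2), of the astrocyte genes Agt and Slc6a11, and of Chchd10 and Hras. All 5 were also lower in both COL libraries under the immune threshold, where Ptgds stood at 315 and 737 CPM (NS) and 41.4 and 113 CPM (COL) and Agt at 24.1 and 20.1 CPM (NS) and 1.43 and 3.53 CPM (COL). The test of the difference passed for Slc6a11 and Hras and not for Ptgds (difference -0.34, SE 0.19, adjusted p = 0.466), Agt or Chchd10. That of Slc6a11 was lost whichever library was left out (adjusted p 0.068 to 0.262), and that of Hras without NS replicate 1, COL replicate 1 or COL replicate 2 (adjusted p 0.132 to 0.233). The largest increases were those of Arhgap10, Skap1, Serpina3n, Iqgap2 and Mctp2. Arhgap10 stood at 3.04 and 3.66 CPM (NS) and 55.8 and 79.998 CPM (COL) (log2 fold change 4.33, SE 0.43, adjusted p = 0.000242). Skap1, an adaptor of T cells, stood at 4.05 and 2.44 CPM (NS) and 55.1 and 60.3 CPM (COL) (log2 fold change 4.09, SE 0.41, adjusted p = 0.000242). Serpina3n stood at 2.38 and 1.87 CPM (NS) and 23.6 and 51.4 CPM (COL) under the threshold, and its difference did not pass (difference -0.16, SE 0.6, adjusted p = 1). The call of Mctp2 (log2 fold change 2.89, SE 0.65, and 1.88 without COL replicate 1 and 3.55 without COL replicate 2) was lost without COL replicate 1 (adjusted p = 0.0598). Arhgap10 and Iqgap2 were far higher on the macrophage side, at 538 and 428 CPM for Arhgap10 and 351 and 388 CPM for Iqgap2.

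The change in microglia was then compared with that in the nuclei under the immune threshold of the same libraries, in a single model with the library as a block. Among 24298 genes, 1311 (5.4%) changed differently at an adjusted p under 0.05, 893 towards a more positive and 418 towards a more negative change in microglia. With another scaling (RLE) the split was 594 and 616, and with DESeq2 274 and 350, so the balance of directions depends on the scaling and the tool. Abca1 rose more in microglia (difference 1.23, SE 0.17, adjusted p = 1.79e-10, log2 scale), and stood at 30.9 and 28.2 CPM in the NS and 34.7 and 48.1 CPM in the COL nuclei under the threshold. Ctsb (difference 1.12, SE 0.17, adjusted p = 2.14e-08) and Igf1 (difference 3.84, SE 0.33, adjusted p = 3.73e-27) did the same, as did Axl (difference 3.13, SE 0.57, adjusted p = 3.15e-06) and Lpl (difference 2.98, SE 0.62, adjusted p = 0.000115). The difference of Igf1 was 4.55 without COL replicate 1 and 2.75 without COL replicate 2, and that of Axl was 2.47 without NS replicate 1 and 3.9 without NS replicate 2. For Abcg1 (difference 1.17, SE 0.21, adjusted p = 4.36e-06) the call was lost without COL replicate 2 (adjusted p = 0.0785). For Csf1 (difference 1.35, SE 0.28, adjusted p = 0.000105) it was lost without COL replicate 2 (adjusted p = 0.141) and without NS replicate 1 (adjusted p = 0.0658). Apoe, which was not called within microglia, gave a positive difference (difference 0.85, SE 0.18, adjusted p = 0.000117). Against all nuclei outside the gate the difference was 0.457 and was not called (adjusted p = 0.123). The call was also lost without NS replicate 1 (adjusted p = 0.0703), COL replicate 1 (adjusted p = 0.0596) or COL replicate 2 (adjusted p = 0.413). Ctsd (difference 0.21, SE 0.17, adjusted p = 0.703), Grn (difference 0.02, SE 0.2, adjusted p = 1) and Cst3 (difference 0.05, SE 0.17, adjusted p = 0.974) did not pass this test.

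Several abundant microglial genes gave negative differences. Inpp5d stood at 5.03 and 5.32 CPM in the NS and 17.8 and 28.4 CPM in the COL nuclei under the threshold (difference -1.92, SE 0.2, adjusted p = 1.15e-18). Csf1r stood there at 7.5 and 9.12 CPM (NS) and 9.22 and 17.3 CPM (COL) (difference -1.02, SE 0.17, adjusted p = 5.78e-07). Fcrls stood at 1.88 and 2.61 CPM (NS) and 5.5 and 10.8 CPM (COL) (difference -1.23, SE 0.19, adjusted p = 2.69e-08). These levels were far under those of the gated nuclei, and in each case both COL libraries were higher than both NS libraries outside the gate. Gm31243 (difference -3.09, SE 0.58, adjusted p = 7.15e-06) and Gm17231 (difference -1.41, SE 0.25, adjusted p = 1.18e-06) fell more in microglia than outside. Of the 36 genes for which this test is given here or above, 17 passed, and the 17 differences that passed kept their sign under each alternative, though not all kept their call.

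**Figure D5:**
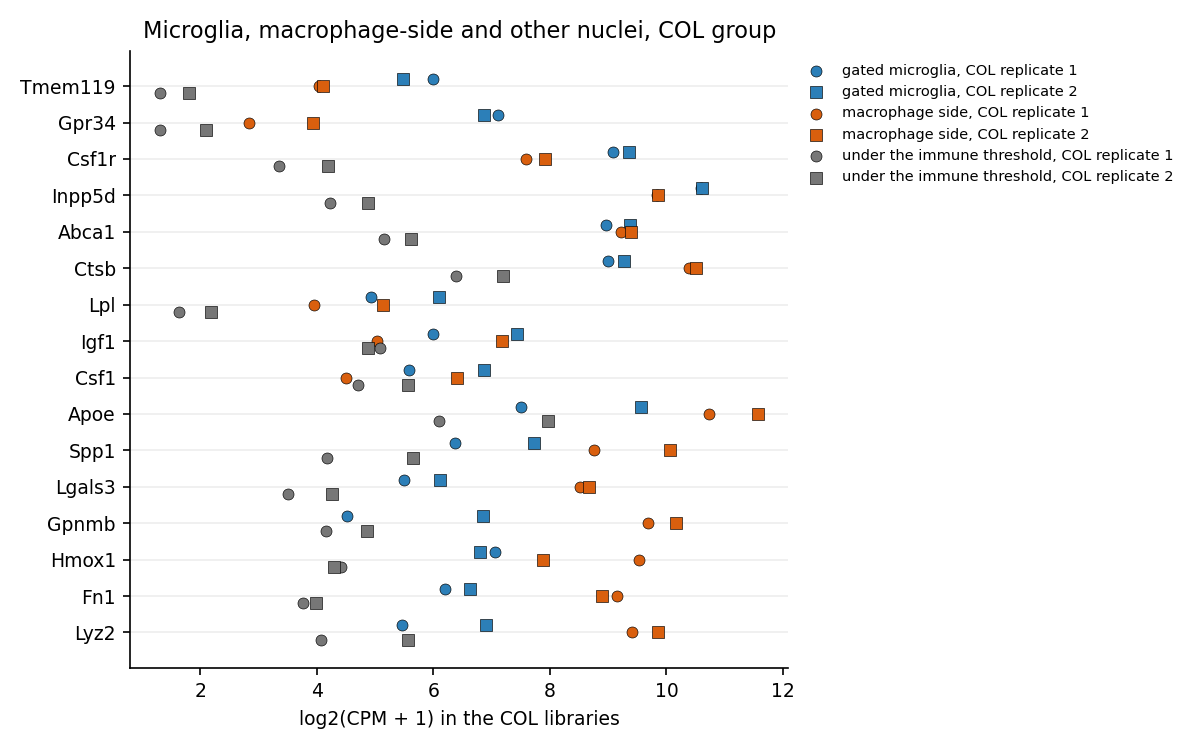
Level of 16 genes in the COL libraries on a log2(CPM + 1) axis in gated microglia, in nuclei on the macrophage side of the gate and in nuclei under the immune threshold, with 1 point per library. Tmem119, Gpr34 and Csf1r were highest in gated microglia, Spp1, Lgals3, Gpnmb, Fn1 and Lyz2 on the macrophage side, and Lpl and Igf1 higher in gated microglia than on the macrophage side of the same library.

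Nuclei of 1 library differed among themselves most in a few genes, given as a description. With nuclei thinned to 1000 UMIs, Malat1, a nuclear non-coding RNA, had the highest ratio of variance to mean in both groups when the ratio was averaged over the 2 libraries, at 8.28 and 7.43 in the NS and 5.77 and 8.37 in the COL libraries. By the same average Pde4b, a phosphodiesterase, followed in NS libraries (5.56 and 4.17). Among COL libraries Runx2, a transcription factor, followed, at 2.57 in COL replicate 1 and 8.91 in COL replicate 2, with means of 0.0707 and 0.109 UMI per nucleus. Genes of neurons and oligodendrocytes were also among the 10 most variable of both groups (Pcdh9, Nkain2 and Slc24a2). Bcl11a (4.38 and 1.15), Spp1 (3.64 and 1.62) and the gate gene Ly86 (2.68 and 2.54) were among the 10 of the COL group, and the groups were not compared in this measure.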

How the data were processed

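Nuclei of the right thalamus were profiled by droplet snRNA-seq, and the deposited files hold UMI counts per gene and nucleus, with no normalisation. The authors aligned the reads to mm10 and counted them with Cell Ranger 1.2.0, per the labels and the study's methods. The 4 libraries held 68746459 to 77557870 UMIs, and the gated microglia 833023 to 2346371 UMIs, which limits the precision for genes of a few CPM. Intervals and floors cover counting error only.

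Counts of gated nuclei were summed per library. Genes were tested with edgeR 4.0.16 (quasi-likelihood, TMM scaling, filterByExpr, Benjamini-Hochberg adjustment over all genes tested, threshold 0.05), with NS and COL libraries of microglia only in the fit. A second edgeR model over microglia and nuclei under the immune threshold, with the library as a block, tested whether changes differed. CPM of gated microglia are TMM-normalised, and those of macrophage-side nuclei and nuclei under the threshold are plain CPM. Values of single measures per library were compared by a two-sided exact permutation test. DESeq2 1.42.0, other scaling, gates, depths and left-out libraries were alternatives. On simulated counts for the 12008 genes, 43% of genes changed by 1 and 89% of genes changed by 2 on the log2 scale were recovered, and for the 24298 genes of the second model 19% and 41%. Each simulation changed 200 genes, fewer than were called in the data. Counts were drawn with the spread typical of each gene's level, and no library effect was simulated. The percentages therefore do not give the power of the tests on the data.

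Named genes were, first, the 12 largest changes each way among called genes with at least 20 CPM, no overlap between groups and at least 2 times the level of nuclei under the threshold. The rule added the 5 largest each way among called genes that were less enriched, up to 4 called and 2 uncalled members of each of 26 lists, the gate genes, and the 10 most variable genes per group. A few genes that the rule names are not reported here. The members of the gate and the lists were chosen with earlier results of these data known. A fold against NS libraries at 0 is a lower bound from a floor of 3 UMIs in each NS library. Genes with 1 to 3 NS UMIs carry a ratio of CPM with its counting interval. A match of a promoter was sought in RefSeq windows of 250 bases before to 50 after a start (GRCm38.p6). Doublets were not called. Removal of the 10% of gated nuclei with the most UMIs of other cell types in each library was an alternative.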

Additional observations from a re-analysis of the deposited data

Results flagged for a closer look

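Apart from the 12 largest increases, the difference between the changes is given in the text for 36 genes. By the test of the difference itself, the change in microglia differed from that in nuclei under the immune threshold for 17 of them. More positive in microglia on the log2 scale were Abca1 (1.23), Abcg1 (1.17), Ctsb (1.12), Csf1 (1.35), Axl (3.13), Igf1 (3.84), Lpl (2.98) and Apoe (0.85). More negative were Csf1r (-1.02), Inpp5d (-1.92), Fcrls (-1.23), Gm31243 (-3.09), Gm17231 (-1.41), Gm32036 (-0.94), 3222401L13Rik (-1.03), Slc6a11 (-0.85) and Hras (-1.17). With DESeq2 the differences of Abcg1 (adjusted p = 0.0525), Csf1 (adjusted p = 0.0895), 3222401L13Rik (adjusted p = 0.0525), Slc6a11 (adjusted p = 0.065) and Hras (adjusted p = 0.118) did not pass, and against all nuclei outside the gate that of Apoe did not (adjusted p = 0.123). Slc6a11 did not pass without the nuclei with most UMIs of other types (adjusted p = 0.34), and Hras did not with at least 3 microglia UMIs (adjusted p = 0.0598) or with the replicate block (adjusted p = 0.073). Of the genes that did not pass, Gpr34, Gm46367, 6030468B19Rik and Chchd10 passed under at least 1 alternative. The difference of Gpr34 changed its sign, to 0.38, without COL replicate 2. These genes were chosen after their values had been seen.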

How the results depend on the processing

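The larger share of gated microglia in the COL group held its direction in 12 of 13 alternatives, with differences of 1.79 to 4.36 percentage points. As a share of immune nuclei, an alternative chosen after seeing the data, the difference was -47.8 points. The higher median depth and the lower resting share held in each alternative run. The activated share differed by 0 to 0.1 percentage points when 1 library was left out and by 0 without COL replicate 2. DESeq2 called 529 genes higher, 496 lower and 624 with different changes. With 1 library left out, 534 to 811 genes were higher, 483 to 997 lower and 675 to 839 differed in their change. Removal of the filter on low counts gave 1558 higher and 1385 lower. Apoe had a log2 fold change of -0.052 with dividing nuclei kept and -0.049 with the gate applied after thinning, and ran from -1.33 (without COL replicate 2) to 0.75 (without COL replicate 1) with 1 library left out, at -0.059 without NS replicate 1. Mertk was at -0.0025 with dividing nuclei kept and -0.0044 without the nuclei with most UMIs of other types, and Ctss ran from -0.064 (without NS replicate 1) to 0.36 (without NS replicate 2). The cause of these shifts was not tested. DESeq2 lost the call of 25 named genes and the RLE scaling of 2. Thinning nuclei to 2000 UMIs lost 6 calls and an immune threshold of 20 lost 3. A gate with no microglia UMI required lost 4, as did a gate with at least 3. Keeping dividing nuclei, removing the filter and removing the 10% with most other-type UMIs lost 2 each, and gating after thinning lost 1. Depth limits calls at low levels, where a gene of 1 CPM had about 1 UMI in an NS library.

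The replicate numbers of NS and COL libraries share only a number in the labels. Deviations of same-numbered libraries from their group means correlated at 0.121, a value that is equal for both numbers by construction with 2 libraries per group. With the replicate number as a block, 1588 genes were higher, 1708 were lower and 1083 differed in their change, and the log2 fold change of Apoe was -0.23.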
